A study of Homo sapiens with 8 samples.

Results

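The methionine cycle and the transsulfuration branch that leaves it were described by 10 genes, chosen by name and found in the deposited RNA-seq tables by their gene symbol. All 10 were among the 16169 genes that appear in either table, and the rows of each gene were summed. RNA came from Hep3B, a hepatocellular carcinoma cell line, in 8 libraries with 2 for each of 4 conditions. The conditions were unmodified Hep3B cells, Hep3B cells labelled SOX4-/- (knockout lines made earlier with CRISPR/Cas9 and kept in puromycin, named here after that label), Hep3B cells transfected with a control (scramble) siRNA, and Hep3B cells transfected with STAT6 siRNA. SOX4 and STAT6 are transcription factors, and the study asked which genes answer to each of them in this cell line.

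Puromycin was named in the methods for the knockout cells and not for Hep3B, so its effect and that of the knockout cannot be told apart. The methods name knockout lines #1 and #2 for these data, and the labels do not say which library is which line. Nothing says that the other libraries of a condition came from separate cultures, so p-values measure the spread between these libraries, which in those conditions may be technical. Expected counts, which are estimated read numbers, summed to 18484804 and 18123854 for Hep3B, 25353113 and 18924814 for SOX4-/-, 18096907 and 20272261 for scramble siRNA, and 16266282 and 22037721 for STAT6 siRNA.

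In the methionine cycle, methionine adenosyltransferase joins methionine to ATP and makes S-adenosylmethionine (SAM), the methyl donor of the cell. Methyltransferases turn SAM into S-adenosylhomocysteine, AHCY splits that into homocysteine and adenosine, and homocysteine is either methylated back to methionine or drawn off towards cysteine by transsulfuration. Liver is the main site of this cycle, and normal hepatocytes use the catalytic subunit MAT1A where most other cells, and many liver cancers, use MAT2A.

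MAT1A and MAT2A are the genes on which the results below turn, and the sequence before the start of each is shown because the pair encode the same activity from start regions of unlike composition. The 250 bases upstream of the RefSeq start (GRCh38.p14) lie at chr10:80289659-80289908 on the minus strand for MAT1A and at chr2:85538918-85539167 on the plus strand for MAT2A. Both are written 5′ to 3′ on the strand of the gene, with the motif matches described below in capitals.
MAT1A: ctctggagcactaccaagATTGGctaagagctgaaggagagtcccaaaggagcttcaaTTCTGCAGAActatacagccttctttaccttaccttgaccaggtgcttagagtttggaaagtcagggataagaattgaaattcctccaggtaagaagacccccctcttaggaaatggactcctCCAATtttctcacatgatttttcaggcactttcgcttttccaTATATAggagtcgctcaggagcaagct
MAT2A: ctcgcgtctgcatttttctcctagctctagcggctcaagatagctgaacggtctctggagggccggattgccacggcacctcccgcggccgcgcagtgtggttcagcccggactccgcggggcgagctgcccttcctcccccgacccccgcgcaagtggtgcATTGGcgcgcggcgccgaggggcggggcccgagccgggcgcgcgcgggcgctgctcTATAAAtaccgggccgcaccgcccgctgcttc

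The MAT1A window held 2 CpG dinucleotides and had a GC content of 44.8%, and 22.9% of the 35116 RefSeq promoter windows held as few or fewer. The MAT2A window held 34 CpG dinucleotides, had a GC content of 71.6%, and 94.2% of windows held as many or fewer. The median window held 11. Of the 10 genes 9 had an entry, with 14 windows in all.

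The letters searched were TATAAA as well as TATATA on the strand of the gene, and 6 others on both strands. These were CCAAT (the CCAAT box), AACAAAG together with the shorter AACAAT (forms known for SOX proteins), TTCNNNNGAA (the spacing known for STAT6), its narrower form TTCNNNGAA (known for other STAT proteins), and TGATGNAAT (a form known for ATF4). MAT1A held TATATA from 27 to 22 bases before its start, and MAT2A held TATAAA from 32 to 27 bases before its start. TATAAA was also in the windows of BHMT (from 29 to 24 bases before the start) and MTAP (from 215 to 210). Of all windows 3.73% held TATATA and 6.80% held TATAAA. MAT1A also held TTCTGCAGAA, a match to TTCNNNNGAA, from 192 to 183 bases before its start, and CBS held another match. That pattern was in 5.38% of all windows. AACAAT, found in 8.98% of windows, was in those of BHMT, CTH and MTAP. CCAAT in either orientation was in 32.0% of windows, among them windows of MAT1A, MAT2A, MAT2B, GNMT, CBS, CTH and MTAP. None of the member windows held AACAAAG (4.50% of windows), TTCNNNGAA (6.57%) or TGATGNAAT (0.888%), which says only that these letters were not in these 250 bases. The transcripts counted by the authors begin upstream of the RefSeq starts for both MAT genes, and no binding data were used here. For MAT2A the counted transcript begins at 85538978, so most of its window, with the marked TATAAA and ATTGG, lies inside that transcript. For MAT1A it begins at 80289679, so only the last bases of the window lie inside it. The positions above are relative to the RefSeq starts.

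The labels were first set against the genes they name. SOX4 was at 729 and 250 CPM (counts normalized to library size, scaled over all 8 libraries) in Hep3B and at 261 and 271 CPM in the SOX4-/- libraries. The groups overlapped, and the change of −0.83 on the log2 scale (standard error, SE, 0.54) did not pass the test (edgeR quasi-likelihood test, Benjamini-Hochberg adjusted p = 0.372). A transcript edited by Cas9 can still be counted, so the SOX4 level does not check the label. STAT6 was at 46.2 and 33.9 CPM with scramble siRNA and 11.5 and 6.49 CPM with STAT6 siRNA. It was 4.65-fold lower, without overlap (log2 fold change −2.22, SE 0.72, edgeR adjusted p = 1.00 without a replicate block, unadjusted p = 0.00834). With a block for the library number it passed the test, as given in the closing section. STAT6 also fell 9.05-fold in the SOX4-/- libraries, from 29.2 and 12.4 CPM to 2.42 and 1.98 CPM (edgeR adjusted p = 0.0275). With either SOX4-/- library left out that p was 0.141 or 0.196, and without Hep3B library 1 the log2 fold change moved from −3.18 to −2.46.

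In the SOX4-/- libraries, MAT1A was the only member that passed the test with all libraries in edgeR, and it lost that call with either SOX4-/- library left out. It rose 11.0-fold while MAT2A, which encodes the enzyme subunit of non-hepatic cells, differed by 1.01-fold. CTH, the last enzyme of transsulfuration, and MTAP, which returns the by-product of polyamine synthesis to methionine, were 3.23-fold and 2.71-fold lower, with adjusted p-values just above 0.05. After STAT6 siRNA no member passed the test.

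The number of members called was 1 of the 9 tested in the knockout comparison, against 5.89% of all 14415 genes tested there. At an unadjusted p under 0.05 were 4 of the 9 members and 3752 of the 14415 genes. For rises the background was 4.50% and for falls 1.39%. CPM of the groups did not overlap for 6 of these 9 members, against 58.2% of all genes, so the share of members was near that of all genes. The median log2 fold change of the tested members was 0.012, and that of all genes tested was 0.0082. In the siRNA comparison 8 members were tested and 0 were called by edgeR, with 0 at an unadjusted p under 0.05. DESeq2 called 0 as well. The background there was 0% of 13554 genes, with 14 genes at an unadjusted p under 0.05. Groups did not overlap for 0 of the 8 members, against 7.70% of all genes.

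MAT1A was counted from 1 transcript, at 80271820 to 80289679 on chromosome 10 of hg38, in the files' own coordinates. Its level was 0.984 and 1.04 CPM in Hep3B and 11.1 and 10.3 CPM in the SOX4-/- libraries. It was 1.54 and 0.960 CPM with scramble siRNA and 1.54 and 0.895 CPM with STAT6 siRNA. Both SOX4-/- libraries lay above all 6 others, which among themselves were within the spread of their pairs.

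These levels rested on 19 and 21 expected counts in Hep3B and 335 and 209 in the SOX4-/- libraries. The log2 fold change was 3.46 (SE 0.53, n = 2 against 2, edgeR adjusted p = 0.0204). With offsets for GC content and length and a block for the library number, MAT1A was not called. There the edgeR adjusted p was 0.0527 and the log2 fold change 3.35. The ratio of the pooled counts was 10.7, with an exact 95% interval of 7.73 to 15.1 that covers counting error only. Leaving out either Hep3B library kept the call, but with SOX4-/- library 1 or 2 left out the adjusted p was 0.110 or 0.133, with log2 fold changes of 3.40 and 3.50. After STAT6 siRNA the log2 fold change of MAT1A was −0.11 (SE 0.79, adjusted p = 1.00 in edgeR). The difference between the changes in the 2 comparisons was 3.45 (SE 0.92). Its edgeR adjusted p was 0.230 (unadjusted p = 0.00209), so it did not pass, and the MAT1A change was not shown to be particular to the knockout comparison.

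MAT2A lies at 85538978 to 85545281 on chromosome 2. It was at 202 and 161 CPM in Hep3B and 176 and 175 CPM in the SOX4-/- libraries. It was at 206 and 296 CPM with scramble siRNA and 175 and 248 CPM with STAT6 siRNA. The groups overlapped in both comparisons. Changes on the log2 scale were 0.012 (SE 0.35, edgeR adjusted p = 0.987) and −0.29 (SE 0.56, adjusted p = 1.00). By gene spans, 558 bases of MAT2A overlap GGCX on the opposite strand, and whether the counting used strand is not given in the sources used here.

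MAT2B encodes the regulatory subunit that binds the MAT2A enzyme, and lies at 163505528 to 163519354 on chromosome 5. Its 28.7 and 33.1 CPM in Hep3B met 31.5 and 32.0 CPM in the SOX4-/- libraries. It was at 12.2 and 22.0 CPM with scramble siRNA and 12.1 and 23.5 CPM with STAT6 siRNA, where the groups again overlapped. Log2 fold changes were 0.10 (SE 0.34, edgeR adjusted p = 0.876) and 0.030 (SE 0.74, adjusted p = 1.00).

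The ratio of MAT1A to MAT2A within a library does not depend on how the library is scaled. For every 1000 counts of MAT2A there were 4.87 and 6.47 counts of MAT1A in Hep3B, and 63.0 and 59.0 in the SOX4-/- libraries. There were 7.48 and 3.24 with scramble siRNA, and 8.76 and 3.62 with STAT6 siRNA. The SOX4-/- libraries stood above the others, whereas the siRNA groups overlapped and library 2 was the lower of each siRNA pair.

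The exact binomial 95% intervals, for counting error only, were 56.2 to 70.3 and 51.1 to 67.9 per 1000 in the SOX4-/- libraries. The highest upper bound among the other 6 was 13.9. The mean log2 ratio rose from −7.48 ± 0.29 (SD, n = 2) in Hep3B to −4.04 ± 0.07 (SD, n = 2), a difference of 3.44 or 10.9-fold. In an exact two-sided permutation test of 2 libraries against 2 its p was 0.333, the smallest this design allows. After STAT6 siRNA the difference was 0.19 (exact permutation p = 0.667), with means of −7.67 ± 0.85 and −7.47 ± 0.90 (SD, n = 2 each).

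Per kilobase of transcript, MAT2A remained the more abundant of the pair in every library. Its level per length was 249 and 187 times that of MAT1A in Hep3B and 19.2 and 20.5 times in the SOX4-/- libraries. It was 162 and 374 times with scramble siRNA and 138 and 335 times with STAT6 siRNA.

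AHCY, the hydrolase that removes S-adenosylhomocysteine, and CBS, which joins homocysteine to serine as the first step of transsulfuration, were with MAT2A the most abundant members. Together these 3 genes made up from 83.8% to 97.6% of the summed CPM of the 10 genes. AHCY, at 34280265 to 34303410 on chromosome 20, was at 316 and 177 CPM in Hep3B and 216 and 267 CPM in the SOX4-/- libraries. It was at 822 and 461 CPM with scramble siRNA and 1339 and 472 CPM with STAT6 siRNA. The groups overlapped in both comparisons, and the log2 fold changes were 0.020 (SE 0.42, edgeR adjusted p = 0.981) and 0.43 (SE 0.62, adjusted p = 1.00).

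CBS was at 287 and 346 CPM in Hep3B and 166 and 215 CPM in the SOX4-/- libraries, without overlap. Its log2 fold change of −0.67 (SE 0.37) did not pass the test (edgeR adjusted p = 0.287). With scramble siRNA it was at 630 and 454 CPM and with STAT6 siRNA at 743 and 446 CPM, with overlap and a log2 fold change of 0.073 (SE 0.56, edgeR adjusted p = 1.00). The files hold CBS at 43053191 to 43076862 and again at 6444869 to 6468540 on chromosome 21, a duplicate copy that received from 1.80% to 4.43% of its counts. Reads can be split between such copies, so the sum was used and the level is uncertain to that extent.

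CTH makes cysteine from cystathionine, the product of CBS, and lies at 70411218 to 70439852 on chromosome 1. It was at 14.0 and 13.4 CPM in Hep3B and 4.17 and 3.96 CPM in the SOX4-/- libraries. With scramble siRNA it was at 7.07 and 10.4 CPM, and with STAT6 siRNA at 4.69 and 8.28 CPM. The SOX4-/- libraries lay below all 6 others.

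For CTH the log2 fold change was −1.69 (SE 0.44, edgeR adjusted p = 0.0652). The adjusted p was 0.00404 in DESeq2, and in a fit of all 8 libraries edgeR gave 0.112. With Hep3B library 1 or 2 left out edgeR gave 0.0407 or 0.0454, and with SOX4-/- library 1 or 2 left out 0.309 or 0.335. After STAT6 siRNA it was −0.46 (SE 0.76, edgeR adjusted p = 1.00). The difference between the changes was −1.33 (SE 0.80, edgeR adjusted p = 0.935).

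MTAP cleaves methylthioadenosine, which polyamine synthesis leaves behind, as the first step of methionine salvage. The gene lies at 21802636 to 21865971 on chromosome 9. It was at 42.0 and 45.2 CPM in Hep3B and 13.1 and 17.8 CPM in the SOX4-/- libraries. With scramble siRNA it was at 19.8 and 45.6 CPM, and with STAT6 siRNA at 23.8 and 42.6 CPM. Again the SOX4-/- libraries were the lowest of the 8, while those of the siRNA experiment split by library number and not by siRNA.

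For MTAP the log2 fold change was −1.44 (SE 0.36, edgeR adjusted p = 0.0586). The adjusted p was 0.00682 in DESeq2, and in a fit of all 8 libraries edgeR gave 0.177. With Hep3B library 1 or 2 left out edgeR gave 0.0288 or 0.0488, and with SOX4-/- library 1 or 2 left out 0.353 or 0.261. After STAT6 siRNA it was −0.013 (SE 0.70, edgeR adjusted p = 1.00). The difference was −1.52 (SE 0.81, edgeR adjusted p = 0.875).

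**Figure D1:**
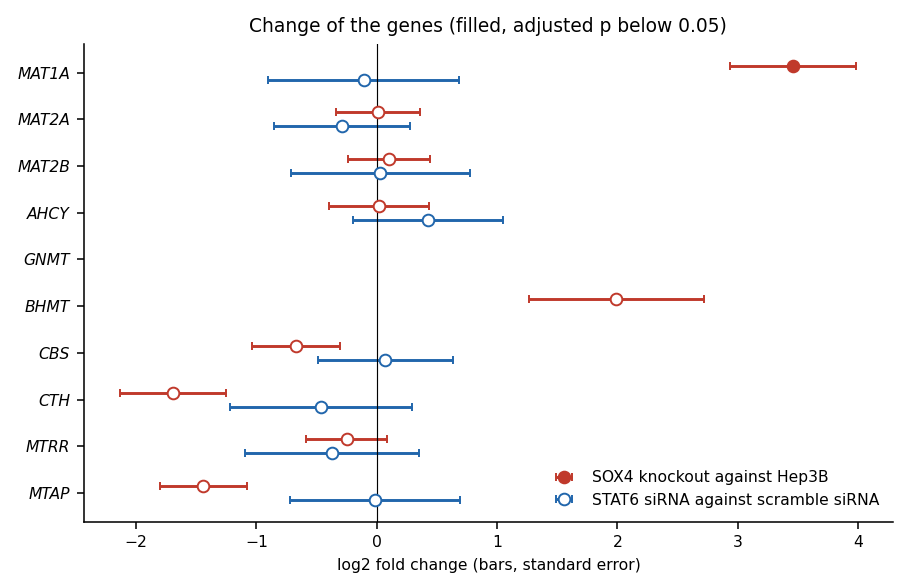
The log2 fold change of each tested member (horizontal axis; bars, standard error) in the knockout comparison (red) and the siRNA comparison (blue), filled where the adjusted p was below 0.05. MAT1A at 3.46 was filled, CTH at −1.69 and MTAP at −1.44 were not, and GNMT was tested in neither comparison.

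MTRR, the reductase that keeps methionine synthase active, lies at 7869104 to 7901123 on chromosome 5. It was at 43.4 and 39.3 CPM in Hep3B and 32.0 and 34.7 CPM in the SOX4-/- libraries. With scramble siRNA it was at 21.9 and 31.0 CPM, and with STAT6 siRNA at 12.6 and 29.2 CPM. The knockout groups did not overlap, but the log2 fold change of −0.25 (SE 0.34) did not pass the test (edgeR adjusted p = 0.680), nor did −0.37 (SE 0.72, adjusted p = 1.00) after STAT6 siRNA. FASTKD3 and C5orf49 overlap the span of MTRR on the opposite strand.

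GNMT and BHMT were close to the limit of detection. GNMT is the abundant liver methyltransferase that disposes of surplus SAM, and BHMT methylates homocysteine with betaine; both mark mature hepatocytes. GNMT, at 42960754 to 42963881 on chromosome 6, was at 0.155 and 0.00018 CPM in Hep3B and 1.04 and 0.495 CPM in the SOX4-/- libraries. It was at 0.356 and 0.144 CPM with scramble siRNA and 0.842 and 0.224 CPM with STAT6 siRNA. The SOX4-/- libraries held 41 counts together and Hep3B 3, a pooled ratio of 10.7 with an exact 95% interval of 3.42 to 54.1 for counting error only. GNMT did not pass the filter on low counts in either comparison, and without that filter its adjusted p in edgeR was 0.160 in the knockout comparison.

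BHMT, at 79111781 to 79132291 on chromosome 5, was at 0.260 and 0.351 CPM in Hep3B and 1.30 and 1.05 CPM in the SOX4-/- libraries. Scramble library 1 held 0 counts, which allows up to 0.185 CPM, scramble library 2 was at 0.337 CPM, and the STAT6 siRNA libraries were at 0.258 and 0.315 CPM. The pooled counts were 60 against 12, a ratio of 3.92 (exact 95% interval 2.09 to 8.01, counting error only). The log2 fold change of 1.99 (SE 0.73) did not pass the test (edgeR adjusted p = 0.140). BHMT was not tested in the siRNA comparison, and it lies within the span of DMGDH on the opposite strand. Its neighbour BHMT2, a related methyltransferase, was far more abundant. BHMT2 was at 39.1 and 34.2 CPM in Hep3B and 17.5 and 16.8 CPM in the SOX4-/- libraries (log2 fold change −1.04, SE 0.35, edgeR adjusted p = 0.117). Reads of these paralogs may be shared, so their levels are uncertain.

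Per kilobase, the order of the members in Hep3B, as mean ± SD of 2 libraries, began with CBS at 122 ± 16.1 CPM per kilobase, AHCY at 115 ± 45.7 and MAT2A at 64.3 ± 10.4. CBS and AHCY did not differ beyond their spread. MAT2B followed at 14.7 ± 1.49, MTRR at 13.0 ± 0.919, MTAP at 8.88 ± 0.468 and CTH at 7.59 ± 0.222 CPM per kilobase. MAT1A came next at 0.297 ± 0.0115, then BHMT at 0.122 ± 0.0258 and GNMT at 0.0724 ± 0.102. In the SOX4-/- libraries MAT1A was at 3.14 ± 0.159 CPM per kilobase, beside MTAP at 3.14 ± 0.667 and above CTH at 2.25 ± 0.0857.

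The mean CPM per gene was also ordered over the 4 conditions. MAT1A and BHMT were highest in the SOX4-/- libraries, apart from the condition next in order. GNMT was also highest there, but its range overlapped that of STAT6 siRNA. CTH and MTAP had their highest mean in Hep3B and their lowest in the SOX4-/- libraries, and for MTAP the ranges of Hep3B and both siRNA conditions overlapped. AHCY and CBS were highest with STAT6 siRNA and scramble siRNA, which overlapped, and the scramble libraries lay above those of Hep3B. The 2 tables are separate experiments, so differences between Hep3B and scramble siRNA cannot be told apart from those between the experiments.

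In the siRNA experiment the members divided by the number of the library. The 4 members with a transcript GC content above 50% (MAT1A, AHCY, GNMT and CBS) were lower in library 2 than in library 1 in 4 of 4 cases with scramble siRNA and 4 of 4 with STAT6 siRNA. The 6 members below 50% were higher in library 2 in 6 of 6 cases in each. In the siRNA libraries GNMT and BHMT had at most 9.87 counts and MAT1A from 18 to 25, so the directions of these genes are uncertain. AHCY, with a GC content of 55.4%, differed between libraries 2 and 1 by −0.84 (scramble) and −1.50 (STAT6 siRNA) on the log2 scale. MTAP, at 40.9%, differed by 1.20 and 0.84. In Hep3B and in the SOX4-/- libraries the counts were 2 of 4 and 3 of 6 in each.

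Across all genes with a known GC content, which are not independent replicates, Spearman's rho between GC content and that difference was −0.75 with scramble siRNA and −0.82 with STAT6 siRNA (13413 genes). It was −0.09 in Hep3B and 0.29 in the SOX4-/- libraries (14246 genes). The log2 ratio of MAT1A (55.0% GC) to MAT2A (45.6% GC) was lower in library 2 of both siRNA conditions, as given above. The part of GC content in the siRNA values was not tested beyond a fit with offsets for GC content and length, in which 0 members were called.

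The genes around the cycle were taken from 6 lists of 49 genes, which were written with earlier results of these data known. Of these, 47 were tested in the knockout comparison and 5 were called, 3 higher and 2 lower, against 5.89% of all genes. Their median log2 fold change was 0.19, beside 0.0082 over all genes tested. In the siRNA comparison 47 were tested and 0 were called by edgeR, with 0 at an unadjusted p under 0.05.

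Betaine supply and the breakdown of its products held 2 of the rises. In the list of homocysteine remethylation and betaine supply 6 of 7 genes had log2 fold changes above 0, with a median of 0.94, and 2 were called. Of all 14415 genes tested 7271 were above 0, and 4.50% were called higher. BHMT2 was the list gene below 0 (log2 fold change −1.04). CHDH, which makes the betaine precursor from choline, rose from 13.3 and 6.24 CPM to 79.0 and 50.5 CPM in the SOX4-/- libraries (6.90-fold, edgeR adjusted p = 0.0279). Its log2 fold change was 2.79, and 3.40 without Hep3B library 1 or 2.32 without library 2. SARDH, which oxidizes sarcosine, the product of GNMT, rose from 5.13 and 2.87 CPM to 22.3 and 14.3 CPM (4.78-fold, edgeR adjusted p = 0.0468). That p was 0.052 when genes under 10 counts in any library were left out and 0.0679 in the fit of all 8 libraries. SARDH was at 30.5 and 17.3 CPM with scramble siRNA and 55.2 and 24.9 CPM with STAT6 siRNA, all above the lower of its SOX4-/- levels. CHDH was at 26.4 and 20.2 CPM with scramble siRNA and 28.9 and 21.2 CPM with STAT6 siRNA, between its Hep3B and SOX4-/- levels. Levels were set side by side across the experiments without a test. MTR, the methionine synthase itself, was at 41.8 and 56.2 CPM in Hep3B and 111 and 68.3 CPM in the SOX4-/- libraries, without overlap but with an edgeR adjusted p of 0.180.

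Among SAM-dependent methyltransferases 7 of 9 were tested and 1 was called, with a median of 0.27. GAMT, which methylates guanidinoacetate to creatine, rose 5.60-fold, from 20.5 and 44.2 CPM to 197 and 148 CPM (edgeR adjusted p = 0.0288, and 0.0638 in the fit of all 8 libraries). Its log2 fold change was 2.48, and 1.99 without Hep3B library 1 or 3.11 without library 2. GAMT was at 180 and 70.4 CPM with scramble siRNA and 320 and 93.9 CPM with STAT6 siRNA, a range that spans its SOX4-/- levels. PEMT, which methylates phosphatidylethanolamine to phosphatidylcholine, was at 7.35 and 17.7 CPM in Hep3B and 31.5 and 34.4 CPM in the SOX4-/- libraries (log2 fold change 1.46, SE 0.47, edgeR adjusted p = 0.106). Without Hep3B library 2 its adjusted p was 0.0128 (log2 fold change 2.20), and without Hep3B library 1 it was 0.157 (0.92). METTL16, the RNA methyltransferase that governs the splicing of MAT2A, was at 52.8 and 90.3 CPM in Hep3B and 38.6 and 45.3 CPM in the SOX4-/- libraries (edgeR adjusted p = 0.283). AHCYL1, an AHCY-like protein, was at 130 and 75.0 CPM and at 109 and 144 CPM, with overlap.

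Among the list genes the 2 called falls were in transport. In the list of methionine and cystine transport 7 of 8 genes had log2 fold changes below 0, with a median of −1.49, and 2 were called. Of all 14415 genes tested 7144 were below 0, and 1.39% were called lower. SLC7A11 and SLC3A2 are the light and heavy chains of the cystine-glutamate exchanger. SLC7A11 fell 7.00-fold, from 151 and 249 CPM to 21.2 and 33.6 CPM (edgeR adjusted p = 0.0200, and 0.0672 in the fit of all 8 libraries). With scramble siRNA it was at 13.5 and 87.6 CPM and with STAT6 siRNA at 15.5 and 58.1 CPM, so library 1 of each siRNA condition lay below the SOX4-/- libraries. SLC3A2 fell 8.41-fold, from 973 and 1453 CPM to 127 and 149 CPM (edgeR adjusted p = 0.0192). In the siRNA libraries SLC3A2 was higher than in SOX4-/-, at 650 and 515 CPM with scramble siRNA and 872 and 440 CPM with STAT6 siRNA. The difference between the changes was −3.31 for SLC3A2 (SE 0.74, edgeR adjusted p = 0.119). Of 14632 genes 0.0683% passed that test of the difference, and 0 of the 10 members and 0 of the 47 list genes tested did, with 1 and 6 at an unadjusted p under 0.05.

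Of the other lists, S-adenosylhomocysteine and adenosine handling (4 genes), polyamine synthesis and methionine salvage (10 genes) and cysteine, glutathione and sulfide (11 genes) had 0 genes called by edgeR in the knockout comparison. At an unadjusted p under 0.05 they held 1, 1 and 3 genes. Their medians were 0.27, −0.0072 and 0.25. With SOX4-/- library 1 or 2 left out, none of CHDH, SARDH, GAMT, SLC3A2 and SLC7A11 was called in edgeR, with adjusted p-values from 0.105 to 0.275. All 5 kept their direction with each library left out.

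**Figure D2:**
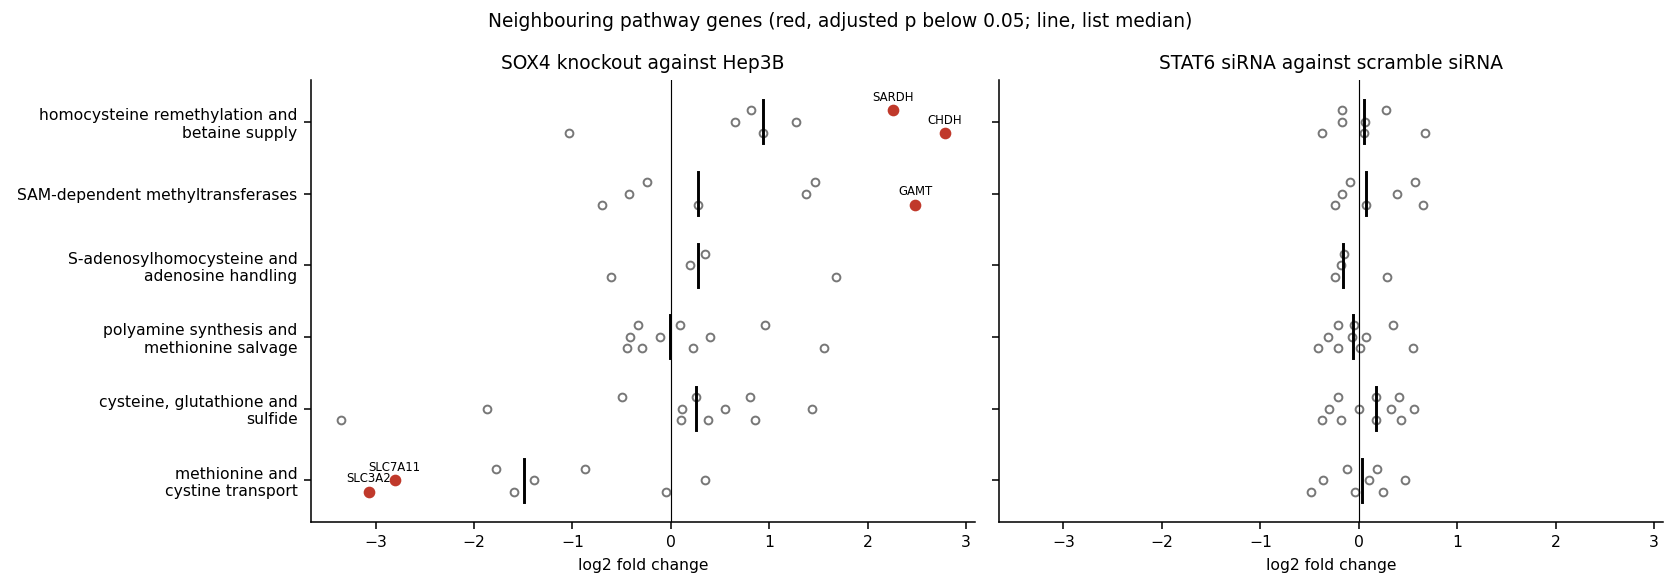
The log2 fold change of every tested gene of the 6 lists (horizontal axis) in the knockout comparison (left) and the siRNA comparison (right), with a line at the median of each list and red points where the adjusted p was below 0.05. A total of 5 red points, 3 to the right of 0 and 2 to the left, appear in the left panel and none in the right.

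The cell type named by the labels was set beside markers. These were picked out once their values were known, so they do not check the label. All 12 hepatocyte markers were above 0 in every library, with a summed level of 13940 and 11890 CPM in Hep3B and 43050 and 26480 CPM in the SOX4-/- libraries. It was 18130 and 18590 CPM with scramble siRNA and 22260 and 23130 CPM with STAT6 siRNA, and ALB was the most abundant except in STAT6 siRNA library 1, where SERPINA1 was. In the knockout comparison 3 of the 12 were called, all higher (APOA1, TTR and FGB), against 4.50% of all genes called higher. Of the 12, 10 were above 0, with a median log2 fold change of 1.00, against 7271 of all 14415 genes. In that comparison these genes of differentiated hepatocytes rose, as MAT1A did, and their part in its rise was not tested. Over all 4 conditions APOA1 and FGB did not follow MAT1A. APOA1 was at 670 and 275 CPM in the SOX4-/- libraries. With scramble siRNA it was at 414 and 173 CPM, and with STAT6 siRNA at 744 and 263 CPM. FGB was at 141.5 and 50.1 CPM in the SOX4-/- libraries. With scramble siRNA it was at 52.8 and 171.6 CPM, and with STAT6 siRNA at 59.7 and 236 CPM.

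Of 5 stromal markers the summed level was 4.04 and 6.98 CPM in Hep3B and 88.6 and 69.7 CPM in the SOX4-/- libraries, most of it LUM at 74.8 and 48.8 CPM. LUM and PDGFRB were called, and COL1A1, a collagen gene, was at 0.880 and 5.10 CPM in Hep3B and 5.10 and 8.41 CPM in the SOX4-/- libraries (log2 fold change 1.24, SE 0.79, edgeR adjusted p = 0.359). All 3 stromal markers tested had log2 fold changes above 0. COL1A2 had no row in that table, which leaves out transcripts with a sum under 10 counts, and DCN had no value here. The part of these genes in the MAT1A rise was not tested. In the siRNA libraries the stromal sum was from 7.78 to 19.5 CPM, led by PDGFRB. Among 5 leukocyte markers CD68 made up most of the sum of 28.0 to 108 CPM. CD68 was at 39.2 and 26.3 CPM in Hep3B and 63.8 and 83.1 CPM in SOX4-/- (2.33-fold higher, edgeR adjusted p = 0.0968), and CD14 was at 1.02 and 1.32 CPM and at 2.98 and 3.99 CPM (3.06-fold higher, edgeR adjusted p = 0.146). Both were without overlap and neither passed the test, and their part in the MAT1A rise was not tested. The pan-leukocyte gene PTPRC was at or below 0.197 CPM in the knockout experiment and had no row in the siRNA table. Of 3 endothelial markers PECAM1 alone had values, at or below 0.692 CPM. In bulk RNA more cells of a type and more RNA per cell cannot be told apart.

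Lastly, the genes whose levels over the 8 libraries were most like those of 3 members were found by Pearson's r of log2 CPM. For MAT1A, among 10994 genes, these included SERPING1, CAND2, PGAM2 and C1R (r from 0.986 to 0.993). SERPING1, the C1 inhibitor of complement, was at 2.18 and 2.57 CPM in Hep3B, 86.4 and 86.0 CPM in the SOX4-/- libraries, and from 1.87 to 5.04 CPM in the siRNA libraries. These correlations rest on the 2 knockout libraries standing apart from the other 6. For CTH they were RAB11FIP1, SEC31A, CYB5D1, DCUN1D2 and UGDH (r from 0.97 to 0.98), and for MAT2A they included WWC3, RPS6KA3, NOSTRIN and DOCK5 (r from 0.95 to 0.96). All points share the library, its depth and its GC profile, so these values are a description.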

How the data were processed

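Poly(A) RNA of 8 Hep3B libraries (Illumina stranded mRNA prep) was sequenced. The authors deposited expected counts (fractional, unnormalized read estimates for each RefSeq transcript) in a table per experiment with 33253 and 30650 transcripts, each summing to at least 10 counts over its 4 libraries. STAR, Partek and hg38 are named in the submitters' processing notes. Their versions and the counter's strand setting are not given in the sources used here. All columns were assigned to a library (0 left out). The design set beforehand assumed counts or, failing that, expected counts, and the rows of a gene were added up and rounded.

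The quasi-likelihood test of edgeR 4.0.16 (R 4.3.3) was run on all genes of a table after filterByExpr, TMM scaling and estimateDisp, and a gene was called where its p, adjusted by Benjamini and Hochberg, was below 0.05. The fold changes come from these fits. The difference between comparisons was a contrast over 8 libraries. Levels are CPM with TMM factors over all 8 libraries from unrounded counts, which span both experiments. Per-kilobase values and GC content used GENCODE release 29 transcripts matched by RefSeq accession. Library totals ranged from 16266282 to 25353113, so 3 counts correspond to 0.0994 to 0.256 CPM. The dispersions were 0.145 and 0.243. Steps were tested on simulated data.

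The members and gene lists were chosen with earlier results of these data known. The 10 members, SOX4, STAT6, MTR, BHMT2, AHCYL1, METTL16 and PEMT were always named, with every called list gene (up to 5 per list) and the 5 genes most like MAT1A, MAT2A and CTH (mean count of 100 or more). Of these most alike genes 2 are not reported here. The marker genes were picked out once their values were known. Alternatives comprised other scaling factors, DESeq2 1.42.0, other filters, robust fitting, a block for the library number, offsets for GC content and length (mgcv 1.9.3), a fit of all 8 libraries and leaving out each library. With 2 libraries per group no outlier could be tested for.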

Additional observations from a re-analysis of the deposited data

How the results depend on the processing

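The number of members called in the knockout comparison was 1, and it was 3 in DESeq2 (MAT1A, CTH and MTAP) and 0 with offsets for GC content and length together with the replicate block, where the adjusted p of MAT1A was 0.0527; with 1 library left out it was from 0 to 3. The log2 fold change of MAT1A itself lay from 3.35 to 3.49 across the other settings and from 3.38 to 3.50 with a library left out. In the siRNA comparison and for the difference between comparisons 0 members were called in each alternative run. The difference in log2 MAT1A to MAT2A ratio ranged from 3.24 to 3.65 for the knockout and from −0.44 to 0.83 for STAT6 siRNA with a library left out. Its values per kilobase, for the most abundant transcript (each gene has 1) and averaged within each library number equal the reported one by construction, apart from rounding, so they do not test it. The cause of the changes below was not tested.

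The labels give both groups numbers 1 and 2 but do not say what the numbers share. Deviations of same-numbered libraries from their group means correlated at −0.084 for the knockout experiment and at 0.87 for the siRNA experiment. With the replicate block 982 genes were called in the knockout comparison and 62 in the siRNA comparison, with 1 and 0 members among them, and 102 for the difference. STAT6 itself, lower in the siRNA comparison, had an adjusted p of 1.00 in edgeR with all 4 libraries and no block, 4.11e-20 with the replicate block and 9.24e-47 with the block and offsets.

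Over all genes, the 849 calls of the knockout comparison became 2160 in DESeq2, 518 with at least 10 counts in every library, 495 with GC and length offsets and 211 with these and the block, and from 21 to 2298 with a library left out. The 0 calls of the siRNA comparison became 366 with the offsets and the block. The 10 calls for the difference became 5 with upper-quartile factors, 146 in DESeq2, 1 with at least 10 counts, 47 with the offsets, and from 1 to 119 with a library left out. SARDH, GAMT and SLC7A11 were not called with the offsets or in the fit of all 8 libraries. With the offsets and the block SLC7A11 was called (edgeR adjusted p = 0.0453) and SARDH and GAMT were not.

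Small changes turned their sign. In the knockout comparison MAT2A was at −0.026 with median-of-ratios factors, −0.026 in DESeq2 and −0.047 in the fit of all 8 libraries. AHCY was at −0.014, −0.014 and −0.033 in the same order, at −0.12 with offsets and at −0.065 with offsets and the block, and MTRR was at 0.049 with offsets and 0.050 with offsets and the block. In the siRNA comparison MTAP was at 0.053, 0.053 and 0.024 in that order, at 0.22 with offsets, 0.20 with offsets and the block and 0.027 with the block, and CBS was at −0.16 with offsets, without or with the block. With a library left out the log2 fold changes in the knockout comparison ran from −0.17 to 0.15 for MAT2A, −0.039 to 0.18 for MAT2B, −0.36 to 0.46 for AHCY, −1.42 to 0.11 for SOX4 and −0.012 to 0.77 for AHCYL1. In the siRNA comparison they ran from −0.47 to 0.32 for MAT1A, −0.62 to 0.0080 for MAT2A, −0.60 to 0.53 for MAT2B, −0.44 to 0.98 for AHCY, −0.28 to 0.39 for CBS, −1.18 to 0.14 for MTRR, −0.56 to 0.72 for MTAP and −1.61 to 0.50 for SOX4. A library left out leaves 1 in its group, which is then assumed to vary like the others. With at most 60 counts per group, GNMT and BHMT are limited by depth.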
